A study of Homo sapiens with 6 samples.

Results

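The TGF-beta and BMP signaling genes were measured in HGC-27, a cell line of undifferentiated human gastric cancer, as 43 genes of the pathway found by Ensembl ID among the 58825 genes of a count table. The 43 genes were listed by symbol as ligands, receptors, SMAD proteins, inhibitors, ID genes, latent binding proteins and secreted antagonists, and the rule used no measured value. The list was still chosen with earlier results of these data known. The study asked what forced expression of GC0643, a gene predicted from sequence that the GRCh38 reference lacks, changes in these cells. RNA was sequenced from 3 libraries of cells with GC0643 overexpression (GC0643 libraries) and from 3 of the Vector control (vector libraries). Both were grown in RPMI medium with fetal bovine serum. The GC0643 line was made by retroviral infection and puromycin selection, while how the control line was made and selected is not given in the sources used here. GC0643 was not analysed here, so the labels were not checked against it. The sources used here do not say whether the replicates were separate cultures, and p-values then measure only the spread between these libraries.

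TGF-beta and activin ligands bind type II receptors, which recruit and phosphorylate type I receptors, and the type I receptors then phosphorylate SMAD2 and SMAD3. BMP ligands act in the same way through their own receptors on SMAD1, SMAD5 and SMAD9. Both branches share SMAD4, and both switch on their own inhibitors, SMAD7 and SMAD6. In epithelial tumours the TGF-beta branch is known for growth arrest at early stages and for mesenchymal change later, and the ID genes are the best known immediate targets of BMP.

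ID1, ID3 and SMAD6, which encode 2 inhibitors of bHLH transcription factors and an inhibitory SMAD, were the members lower in the GC0643 libraries at an unadjusted p under 0.05. They were 3 of the 40 members tested, a share near the 5.26% of all genes that were lower, and 0 members passed an adjusted p under 0.05. Without vector replicate 3, ID3 alone was lower (2.66% of all genes). After a correction for GC content the lower members were ID3 and SKIL (3.24% of all genes). ID1 (unadjusted p = 0.0578) and SMAD6 (unadjusted p = 0.0753, both edgeR) were then not past the threshold. ID1, ID3 and SMAD6 are all textbook SMAD targets, so the 250 bases before their RefSeq start (GRCh38.p14) are printed, 5′ to 3′ on the strand of the gene. Capitals mark AGAC and its reverse complement GTCT, the short box that SMAD3 and SMAD4 bind, and the palindrome GTCTAGAC that holds both. The ID1 window is chr20:31605039-31605288 on the plus strand, and its last 6 bases lie in the ID1 exon of GENCODE, which starts earlier than RefSeq's. The ID3 window is chr1:23559502-23559751 on the minus strand, and the SMAD6 window is chr15:66701986-66702235 on the plus strand.
ID1: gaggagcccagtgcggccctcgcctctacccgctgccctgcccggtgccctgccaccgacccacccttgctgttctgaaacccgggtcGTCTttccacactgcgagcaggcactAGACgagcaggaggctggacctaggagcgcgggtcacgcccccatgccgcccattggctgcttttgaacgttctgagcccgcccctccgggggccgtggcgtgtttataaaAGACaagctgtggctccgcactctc
ID3: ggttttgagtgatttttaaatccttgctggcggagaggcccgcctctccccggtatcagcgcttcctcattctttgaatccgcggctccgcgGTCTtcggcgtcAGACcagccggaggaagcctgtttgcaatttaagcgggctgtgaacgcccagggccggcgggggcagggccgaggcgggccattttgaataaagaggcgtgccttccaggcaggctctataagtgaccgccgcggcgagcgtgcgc
SMAD6: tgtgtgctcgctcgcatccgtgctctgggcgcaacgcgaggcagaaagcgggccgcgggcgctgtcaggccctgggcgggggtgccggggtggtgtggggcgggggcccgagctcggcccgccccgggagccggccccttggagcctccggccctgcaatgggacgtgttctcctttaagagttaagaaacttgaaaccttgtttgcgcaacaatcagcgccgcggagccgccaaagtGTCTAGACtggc

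The ID1 window held the box at 162, 136 and 25 bases before the start, and the ID3 window at 158 and 146. In SMAD6 the palindrome lay 12 bases before the start, and its boxes at 12 and 8 bases were part of it. The box is common, being found in 77.5% of the 35116 promoter windows of this length searched on both strands, whereas GTCTAGAC was found in 0.182% of them. Among the 69 windows of the 38 members with a promoter entry, the palindrome was found in that of SMAD6 alone and the box in 53 (76.8%). A further GC-rich motif bound by BMP SMADs, GGCGCC, was found in 16.4% of all windows and in 15 of the 69 member windows (21.7%), but in none of the 3 printed. A match is a description of letters and says nothing of binding in these cells.

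The libraries held 20376722 to 21629573 counts in the GC0643 group and 20489033 to 24069166 in the vector group, and 19528 genes passed the filter on low counts. Vector replicates 2 and 3 stood apart, with a chi-square per degree of freedom of 46 between their counts against 5.8 to 18.7 for the other pairs of 1 group. Genes of higher GC content had lower fold changes (Spearman's rho −0.67 over 19401 genes, which share their 6 libraries). As a check of the label, all 10 gastric epithelium markers were under 1 CPM (counts relative to the TMM-scaled library size), 5 of them at 0 in every library. Of 8 epithelial markers, EPCAM, CDH1, KRT18 and KRT19 were under 1 CPM as well, while KRT8, ESRP1, CLDN4 and CLDN7 exceeded it in at least 1 library, with CLDN7 the highest, at up to 15.3 CPM. VIM, an intermediate filament of mesenchymal cells, was at 3061 to 3371 CPM, and 7 of 8 mesenchymal and all 9 fibroblast markers exceeded 1 CPM. Summed over each list, the epithelial markers were at 18.6 to 27.2 CPM and the mesenchymal markers at 3652 to 3978 CPM. These markers thus did not bear out a gastric epithelial identity. The line is named as undifferentiated, so missing markers of differentiated epithelium cannot decide the label. Which line the cells are was not tested. The summed fibroblast markers were at 4353 to 5135 CPM in the GC0643 and 4309 to 4954 CPM in the vector libraries. At an unadjusted p under 0.05, 5 of the 9 were higher (LUM, DCN, COL1A2, PDGFRA and FAP), where 13.1% of all genes were, and 0 were lower. Their log2 fold changes were positive for 6 and negative for 3, with a median of 0.46. After a correction for GC content the median was 0.17 and 3 were higher (2.87% of all genes). All 7 endothelial markers and 7 of 8 leukocyte markers were under 1 CPM in every library, and of 6 erythroid markers HBA1 and HBA2 exceeded it, at log2 fold changes of −0.59 and −0.63. Both were lower at an unadjusted p under 0.05 (5.26% of all genes), and also after GC correction (3.24% of all genes). The part of these marker genes in the results below was not tested. In such bulk RNA, fewer cells of a type and less RNA per cell cannot be told apart.

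Of the 43 members, 40 passed the low-count filter, and the type II receptor TGFBR2, the activin subunit INHBA and the BMP antagonist GREM1 did not. None of the 40 passed an adjusted p under 0.05 in edgeR's quasi-likelihood test, nor did any of the 19528 genes (0% called), while 8 members had an unadjusted p under 0.05, as did 18.3% of all genes. By edgeR's likelihood ratio 16 genes were called, by DESeq2 11 and by limma voom 0, and no member was among them. By the unadjusted p, 5 of the 40 were higher in the GC0643 libraries (TGFBR1, SMURF2, SMAD4, BMPR1A and LTBP1) and 3 were lower (ID3, ID1 and SMAD6). Of all genes tested, 13.1% were higher and 5.26% were lower by the same rule, so the shares of higher and of lower members were both near the background. With DESeq2's size factors the split of the members was 4 higher and 6 lower, and that of all genes 2194 (11.2%) and 1445 (7.4%) in place of 2553 and 1028. The median log2 fold change was 0.02 over the 40 members and 0.02 over all genes, with 22 members positive (51.9% of all genes) and 18 negative (48.1% of all genes). ID3, on the lower side, was the one member past a fold change of 1.5 together with the unadjusted p, where 1.6% of all genes were higher and 0.871% were lower.

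These counts depended on which libraries were used. Without vector replicate 2, 10 of the 40 members passed the adjusted p (quasi-likelihood test of edgeR), where 19.1% of all genes did. They were the 8 named above with BMP7 and ENG. At the unadjusted p, 10 members were then higher (22.8% of all genes) and 8 lower (14.2% of all genes). Without vector replicate 3, 3 were higher (7.71% of all genes) and 1 was lower (2.66% of all genes). Higher members numbered 1 without vector replicate 1 (4.14% of all genes), 2 without GC0643 replicate 1 (6.5% of all genes) and 2 without GC0643 replicate 3 (6.36% of all genes). After a correction for GC content 1 member was higher and 2 were lower, where 2.87% and 3.24% of all genes were, and after a correction for transcript length 1 was higher and 6 were lower, where 8.05% and 8.64% of all genes were.

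**Figure D1:**
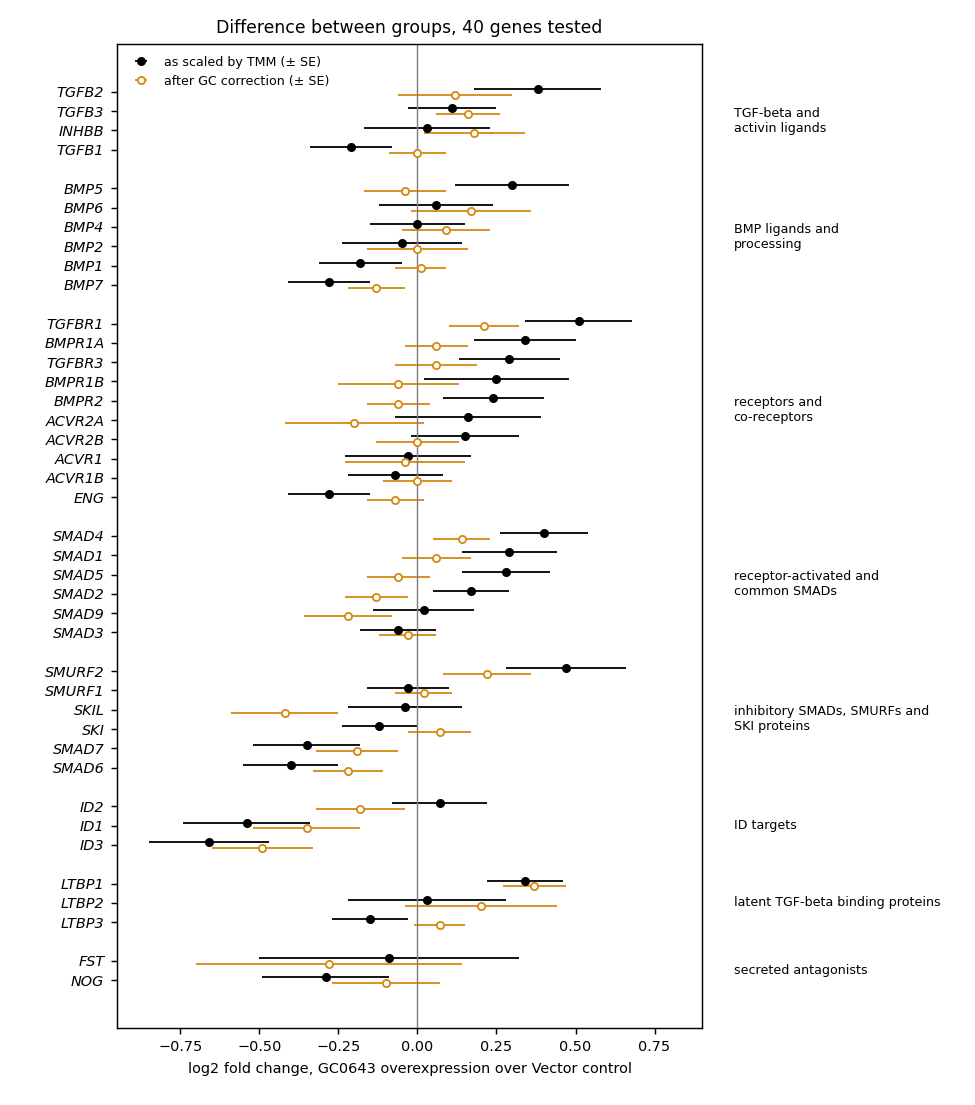
The log2 fold change of each of the 40 members tested, GC0643 overexpression over Vector control, with its standard error, as scaled by TMM (filled) and after GC correction (open), grouped by role. Receptors and SMADs lay mostly right of 0 before the correction and around 0 after it, whereas ID1 and ID3 lay left of 0 in both.

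The levels of the members spanned a wide range when divided by exon length. ID1 and ID3 were the most abundant, at means of 143 and 129 CPM per kb of exon over the 6 libraries. Their values overlapped, at 111 to 244 for ID1 and 98.3 to 224 for ID3 (CPM per kb). By canonical transcript length ID3, at 203 CPM per kb, was above ID1, at 180 CPM per kb. TGFB1 followed at 53.9 CPM per kb and LTBP1 at 37.1 CPM per kb, then SKI and ENG at 21.9 and 21.0 CPM per kb, whose libraries overlapped. LTBP3 and ID2, at 26.6 and 24.6 CPM per kb by canonical transcript length, were above SKI, at 24.1 by that length. TGFBR2, GREM1 and INHBA were last, at 0.0463, 0.00684 and 0.00376 CPM per kb. The counting options were not stated for these libraries (those given for the study's tissue libraries let a read count for every gene it overlaps), and 21 members share exon bases with another annotated gene, so reads of overlapping genes cannot be told apart. The shared part was largest in TGFB2, where TGFB2-OT1 covers 22.7% and TGFB2-AS1 11.6% of its exons, and it was 16.3% in BMP4 and 11.7% in SMURF1.

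**Figure D2:**
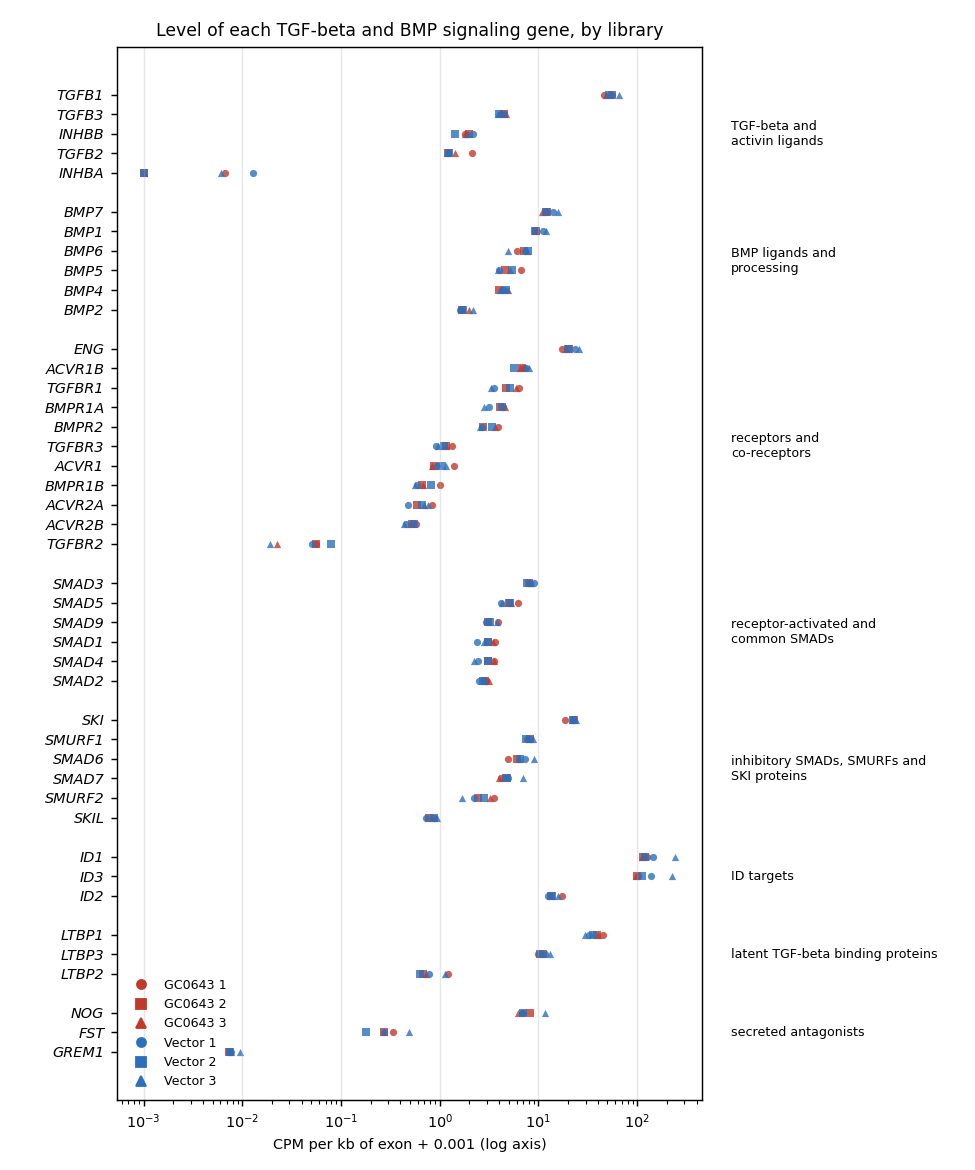
The level of each of the 43 members in the 6 libraries, as CPM per kb of exon on a log axis with 0.001 added, by role (red, GC0643 overexpression; blue, Vector control; circle, square and triangle, replicates 1, 2 and 3). ID1 and ID3 lie at the top of the range, with vector replicate 3 to the right of the other libraries, and TGFBR2, GREM1 and INHBA lie orders of magnitude below.

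Among the ligands, TGFB1 was the main TGF-beta, and no ligand passed the unadjusted p. TGFB1, the isoform most widely made by tumour cells, took 88.0% to 92.9% of the summed TGF-beta level per length in each library. It was read at 150.5, 180.4 and 159 CPM in GC0643 replicates 1 to 3 and at 182, 169 and 215 CPM in vector replicates 1 to 3. The groups overlapped, and the log2 fold change of −0.21 (SE 0.13) went to 0.00 after GC correction. TGFB2 had 12.7, 7.41 and 8.63 CPM in the GC0643 and 7.34, 7.57 and 7.19 CPM in the vector libraries. The high value of GC0643 replicate 1 set its log2 fold change of 0.38 (SE 0.20), which was 0.12 without that library. TGFB3 had 22.0, 23.3 and 24.4 CPM against 23.2, 21.1 and 20.25 CPM, a log2 fold change of 0.11 (SE 0.14) with overlapping groups. INHBB, which forms activin B, had a log2 fold change of 0.03, and INHBA, which forms activin A, had 0 to 2 counts per library.

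BMP7, a ligand that signals mainly through SMAD1, SMAD5 and SMAD9, led the BMP ligands with 35.4% to 51.3% of their summed level per length. It was read at 64.3, 65.8 and 58.3 CPM in the GC0643 and 76.8, 65.5 and 85.8 CPM in the vector libraries. Vector replicate 2 fell among the GC0643 libraries, and the log2 fold change was −0.28 (SE 0.13, unadjusted p = 0.0553, edgeR). The log2 fold changes of BMP2, BMP4, BMP5, BMP6 and of BMP1, a protease that cuts procollagen and BMP antagonists, ran from −0.18 to 0.30. BMP4 was at 0.00 (SE 0.15).

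Receptors as a group had 7 positive and 3 negative log2 fold changes of 10 tested, with a median of 0.20, and after GC correction 4 were positive and 6 negative with a median of −0.02. The members higher at the unadjusted p were TGFBR1 and BMPR1A. TGFBR1 (chr9:99104038-99154192, plus strand), the type I receptor of TGF-beta, was read at 50.6, 37.6 and 47.5 CPM in the GC0643 and 28.3, 40.7 and 26.2 CPM in the vector libraries. The means were 45.3 ± 6.80 and 31.7 ± 7.86 CPM (SD, n = 3). Vector replicate 2 was above GC0643 replicate 2, so the groups overlapped. The log2 fold change was 0.51 (SE 0.17, unadjusted p = 0.00982, adjusted p = 0.26, quasi-likelihood test of edgeR), 0.43 without GC0643 replicate 1 (unadjusted p = 0.0587) and 0.21 after GC correction (unadjusted p = 0.076).

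BMPR1A (chr10:86756596-86932825, plus strand), a type I receptor of BMP2 and BMP4, was read at 43.7, 41.5 and 45.8 CPM in the GC0643 and 32.1, 42.9 and 28.2 CPM in the vector libraries. Vector replicate 2 lay within the GC0643 range and the other vector libraries lay below it. Its log2 fold change of 0.34 (SE 0.16, unadjusted p = 0.0426, edgeR) was 0.06 after GC correction, and it passed the unadjusted p in 6 of 19 alternatives. It was lost when any library other than vector replicate 2 was left out, at 0.21 to 0.37 on the log2 scale.

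The other type I receptors did not pass. BMPR1B, ACVR1 and ACVR1B, receptors of BMPs and activins, had log2 fold changes of 0.25, −0.03 and −0.07. ACVR1B and TGFBR1 were the most abundant type I receptors per kb of exon (by canonical transcript length BMPR1A, at 6.08 CPM per kb, was above TGFBR1, at 5.93), ACVR1B with 33.7% to 51.1% and TGFBR1 with 20.6% to 32.2% of their summed level, with ACVR1B the higher of the pair in every library.

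TGFBR2, the type II receptor that TGF-beta needs, was almost unread. It had 8, 8 and 3 counts in the GC0643 and 7, 11 and 3 counts in the vector libraries, or 0.373, 0.3775 and 0.148 CPM against 0.345, 0.534 and 0.125 CPM. The lowest value of each group was in replicate 3, and the groups overlapped. It made up 0.449% to 1.68% of the summed type II receptor level per length, whereas BMPR2, the type II receptor of BMPs, made up 67.9% to 74.7%. BMPR2, ACVR2A and ACVR2B had log2 fold changes of 0.24, 0.16 and 0.15 (SE 0.16, 0.23 and 0.17).

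Of the co-receptors, ENG (endoglin) was the most abundant receptor gene per length. It was read at 67.0, 78.5 and 73.6 CPM in the GC0643 and 89.3, 77.1 and 99.1 CPM in the vector libraries. Vector replicate 2 was inside the GC0643 range, and the log2 fold change was −0.28 (SE 0.13, unadjusted p = 0.0515, edgeR). TGFBR3 (betaglycan), which presents TGF-beta to its receptors, had a log2 fold change of 0.29 (SE 0.16), and its GC0643 values of 9.82 to 11.3 CPM did not overlap the vector values of 7.78 to 9.37 CPM. Members whose GC0643 values were all higher numbered 5 (TGFBR3, SMAD1, SMAD2, SMAD4 and LTBP1), where 11.8% of all genes were, and those all lower numbered 2 (SMAD6 and ID3), where 10.5% were.

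Among the receptor-activated and common SMADs, SMAD4 passed the unadjusted p and 5 of 6 log2 fold changes were positive, with a median of 0.22. With DESeq2's size factors 4 were positive, and after GC correction 2 were, with a median of −0.04. SMAD4 (chr18:51028528-51085045, plus strand), the partner of all receptor-activated SMADs, was read at 70.1, 60.3 and 69.6 CPM in the GC0643 and 47.9, 60.1 and 43.7 CPM in the vector libraries. The groups were separated only by the gap between the replicates numbered 2. SMAD4 had a log2 fold change of 0.40 (SE 0.14, unadjusted p = 0.0135, adjusted p = 0.26, quasi-likelihood test of edgeR) and 0.14 after GC correction. It was 0.37 without GC0643 replicate 3 (unadjusted p = 0.053) and 0.35 without vector replicate 1 (unadjusted p = 0.0676).

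SMAD2, a carrier of the TGF-beta signal, was read at 108, 105 and 114.5 CPM in the GC0643 and 90.2, 99.96 and 101.5 CPM in the vector libraries. Its groups did not overlap, but the log2 fold change of 0.17 (SE 0.12) turned to −0.13 after GC correction and to −0.02 after length correction. SMAD3, the other carrier, had 82.4, 80.5 and 79.9 CPM against 91.3, 77.0 and 84.45 CPM, a log2 fold change of −0.06 (SE 0.12) with overlapping groups. SMAD1, SMAD5 and SMAD9, the carriers of the BMP signal, had log2 fold changes of 0.29, 0.28 and 0.02 (SE 0.15, 0.14 and 0.16), which were 0.06, −0.06 and −0.22 after GC correction.

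SMAD6 and SMURF2 moved in opposite directions among the inhibitors. SMAD6 (chr15:66702236-66782849, plus strand), which blocks mainly the BMP branch and whose promoter held the GTCTAGAC palindrome, was read at 42.2, 51.3 and 54.5 CPM in the GC0643 and 62.0, 55.7 and 78.0 CPM in the vector libraries. All GC0643 values were below all vector values, but GC0643 replicate 3 and vector replicate 2 were close. The means were 49.4 ± 6.39 and 65.2 ± 11.5 CPM (SD, n = 3). SMAD6 thus had a log2 fold change of −0.40 (SE 0.15, unadjusted p = 0.0175, adjusted p = 0.26, quasi-likelihood test of edgeR). It was −0.30 without GC0643 replicate 1 (unadjusted p = 0.0922), −0.26 without vector replicate 3 (unadjusted p = 0.0634) and −0.22 after GC correction (unadjusted p = 0.0753). SMAD7, which blocks the TGF-beta branch too, had 16.7, 18.9 and 15.8 CPM against 19.4, 18.4 and 27.4 CPM. Vector replicate 3 was above all others, and the log2 fold change was −0.35 (SE 0.17, unadjusted p = 0.0598, edgeR) and −0.15 without that library.

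SMURF2 (chr17:64542282-64662307, minus strand), a ubiquitin ligase that degrades SMADs and receptors, was read at 25.8, 17.7 and 23.3 CPM in the GC0643 and 16.2, 20.04 and 12.1 CPM in the vector libraries. The replicates numbered 2 were in the reverse order, so the groups overlapped. The log2 fold change of 0.47 (SE 0.19, unadjusted p = 0.0269, edgeR) was 0.22 after GC correction, and 0.29 without vector replicate 3 (unadjusted p = 0.0808). Its unadjusted p also exceeded 0.05 without GC0643 replicate 1 (0.35 on the log2 scale), GC0643 replicate 3 (0.44) or vector replicate 1 (0.46). SKI, a corepressor of SMAD complexes and the most abundant member of this group per length, had 123.5, 153 and 145 CPM against 151, 149 and 159 CPM. Its log2 fold change of −0.12 (SE 0.12) turned to 0.07 after GC correction. SMURF1 and the corepressor SKIL had log2 fold changes of −0.03 and −0.04, and SKIL, the member of lowest GC content, was at −0.42 after GC correction (SE 0.17, unadjusted p = 0.0291, edgeR).

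ID3 and ID1 were the most reduced members, each close to the same level in the GC0643 libraries and highest in vector replicate 3. ID3 (chr1:23557926-23559501, minus strand) was read at 154, 149 and 147 CPM in the GC0643 and 208, 166 and 335 CPM in the vector libraries. The groups did not overlap, with means of 150.1 ± 3.70 and 236 ± 87.6 CPM (SD, n = 3). ID3 had a log2 fold change of −0.66 (SE 0.19, unadjusted p = 0.00361, adjusted p = 0.26, quasi-likelihood test of edgeR), the vector level being 1.58 times the GC0643 level. It was −0.33 without vector replicate 3 (unadjusted p = 0.0123), −0.85 without vector replicate 2 and −0.49 after GC correction (unadjusted p = 0.0118). ID3 was the member that passed the unadjusted p in all 19 alternatives, at log2 fold changes of −0.85 to −0.33, and its adjusted p ranged from 0.00096 to 0.993 over them.

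ID1 (chr20:31605283-31606515, plus strand) was read at 154, 141 and 137 CPM in the GC0643 and 179, 148 and 301 CPM in the vector libraries. Vector replicate 2 was within the GC0643 range, so the groups overlapped. The means were 144 ± 9.15 and 209 ± 81.0 CPM (SD, n = 3). Its log2 fold change was −0.54 (SE 0.20, unadjusted p = 0.0151, adjusted p = 0.26, quasi-likelihood test of edgeR), −0.19 without vector replicate 3 (unadjusted p = 0.142) and −0.35 after GC correction (unadjusted p = 0.0578). ID1 and ID3 stayed in nearly the same proportion in every library, ID1 with 48.9% to 50.9% and ID3 with 41.9% to 46.9% of the summed ID level per length.

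ID2, the third of the ID genes, did not share this pattern. It had 38.8, 29.7 and 29.9 CPM in the GC0643 and 27.9, 30.5 and 35.1 CPM in the vector libraries. GC0643 replicate 1 was the highest and the groups overlapped, and the log2 fold change of 0.07 (SE 0.15) was −0.06 without that library, −0.01 without vector replicate 1 and −0.18 after GC correction.

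**Figure D3:**
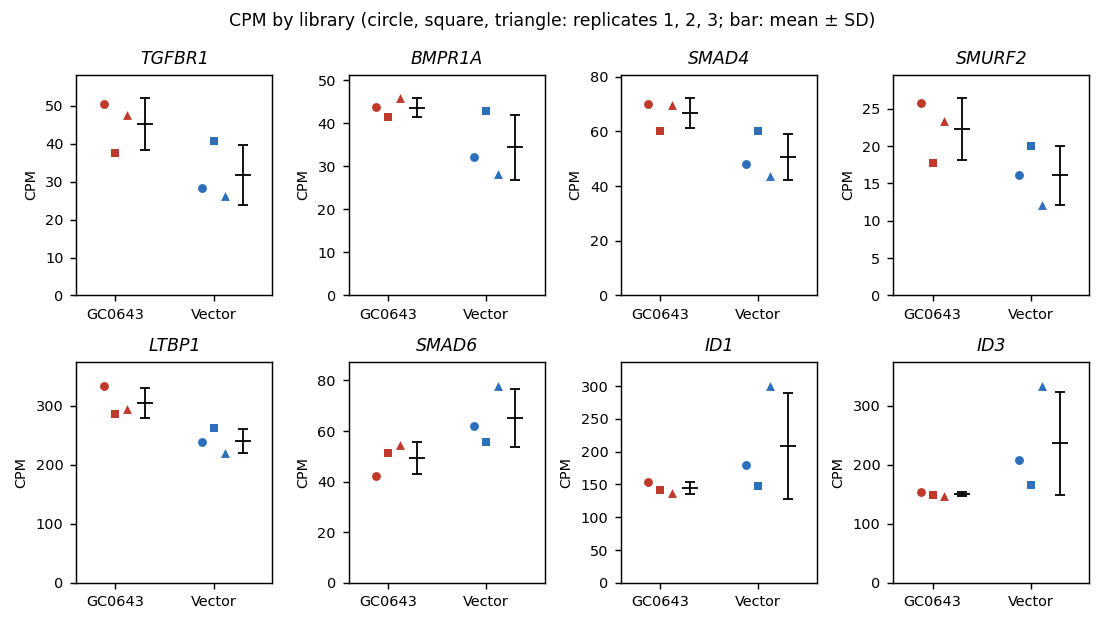
CPM in each library for the 8 members past an unadjusted p of 0.05, with the mean and SD of each group beside its points and axes that start at 0. Vector replicate 2 (square) lies beside the GC0643 libraries in TGFBR1, BMPR1A, SMAD4, SMAD6, SMURF2 and ID1, and vector replicate 3 (triangle) is far above all other libraries in ID1 and ID3.

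LTBP1 was the one extracellular member past the unadjusted p. LTBP1 (chr2:32946953-33399509, plus strand), which ties latent TGF-beta to the matrix, was read at 334, 286 and 295 CPM in the GC0643 and 239, 262 and 219.8 CPM in the vector libraries. All GC0643 values were above all vector values. LTBP1 had a log2 fold change of 0.34 (SE 0.12, unadjusted p = 0.0108, adjusted p = 0.26, quasi-likelihood test of edgeR), 0.33 without vector replicate 1 (unadjusted p = 0.0524) and 0.19 after length correction (unadjusted p = 0.129). After GC correction it was 0.37 (unadjusted p = 0.00376), the one higher member then past the threshold. LTBP2 and LTBP3, of the same family, had log2 fold changes of 0.03 and −0.15 (SE 0.25 and 0.12).

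Of the secreted antagonists, NOG (noggin), which binds BMPs and keeps them from their receptors, had 12.9, 15.6 and 11.8 CPM in the GC0643 and 13.3, 13.5 and 22.3 CPM in the vector libraries. Vector replicate 3 was again the highest, and the log2 fold change of −0.29 (SE 0.20) was 0.00 without it. FST (follistatin), which binds activins, had 10 to 32 counts per library and a log2 fold change of −0.09 (SE 0.41), and GREM1 had 2 to 3 counts per library.

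Vector replicate 3 was the highest library for 16 and the lowest for 12 of the 40 members tested, and GC0643 replicate 1 was the highest for 17. Vector replicate 3 was also the highest library for most BMP response genes that are no members. Of 9 of them tested, 8 had negative log2 fold changes, the median was −0.44 against 0.02 for all genes, and 4 were lower at the unadjusted p (DLX3 −0.57, MSX2 −0.51, MSX1 −0.45 and ATOH8 −0.44), where 5.26% of all genes were. All 4 are transcription factors of BMP-patterned tissues. The list of BMP response genes was also chosen with earlier results of these data known. MSX2 had 163, 152 and 148 CPM in the GC0643 and 187, 154.5 and 319 CPM in the vector libraries, the highest again in vector replicate 3. DLX3 had 63.0, 66.3 and 64.9 CPM against 81.9, 65.7 and 140.5 CPM, with the same library highest. Without vector replicate 2, 7 of these 9 genes were lower at the unadjusted p (14.2% of all genes) and 5 passed the adjusted p of edgeR (19.1% of all genes). Without vector replicate 3 their median was −0.05 and none was lower at the unadjusted p, and after GC correction the median was −0.27 and 1 was lower.

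**Figure D4:**
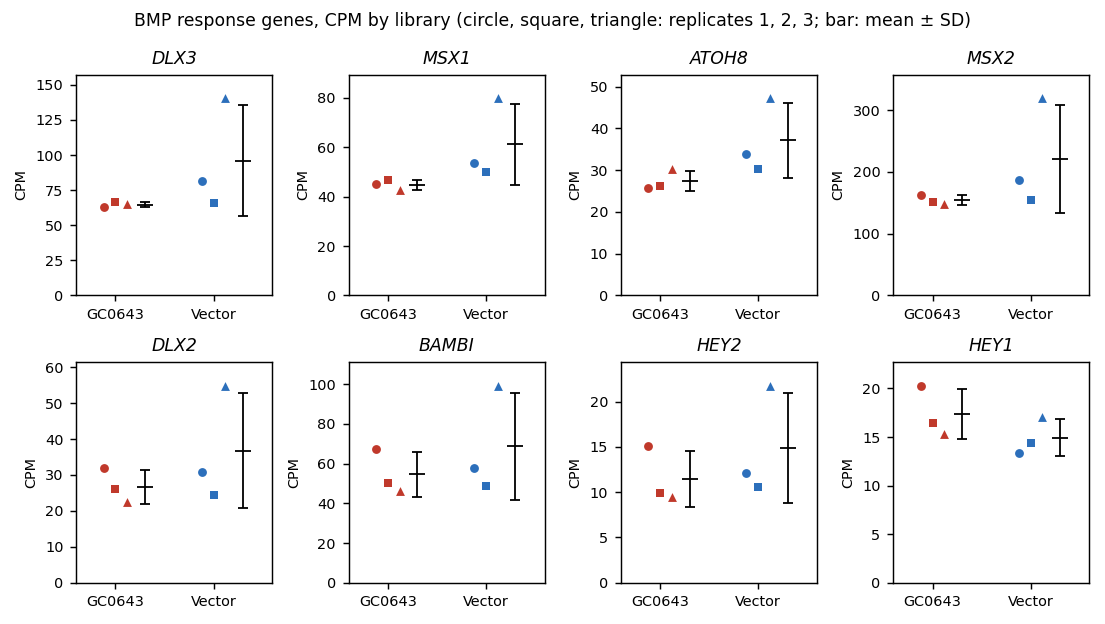
CPM in each library for the 8 BMP response genes with the smallest p of the 9 tested, with the mean and SD of each group and axes that start at 0. Vector replicate 3 (triangle) is the highest library in 7 of the 8 panels, and DLX5, the gene not drawn, had a log2 fold change of −0.03.

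The genes that respond to TGF-beta did not share a direction. Of 26 tested, 8 were positive and 18 negative, with a median log2 fold change of −0.14 that was 0.09 without vector replicate 3. At the unadjusted p, the matrix genes FN1 (0.50) and COL1A2 (0.46) were higher and PMEPA1 (−0.36), a feedback inhibitor of TGF-beta, and SPHK1 (−0.30), a lipid kinase, were lower, where 13.1% of all genes were higher and 5.26% lower. COL1A2 was read at 160.0, 125 and 110.4 CPM in the GC0643 and 96.4, 84.2 and 106 CPM in the vector libraries, without overlap. PMEPA1 had 11.5, 12.8 and 12.7 CPM against 16.1, 14.6 and 16.7 CPM, also without overlap, and after GC correction its log2 fold change was −0.25 (unadjusted p = 0.0415, edgeR). COL1A2 was then at 0.57 (unadjusted p = 0.00078), FN1 at 0.51 (unadjusted p = 0.0121) and SPHK1 at −0.08 (unadjusted p = 0.365, all edgeR). Of the 26, 3 were higher and 2 lower after that correction, where 2.87% and 3.24% of all genes were.

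The rest of the pathway was mixed, and its counts at the unadjusted p stand against 13.1% of all genes higher and 5.26% lower. Of 26 SMAD partners and regulators, 6 were higher and 1 (PMEPA1) was lower at the unadjusted p, with a median log2 fold change of 0.11. The 4 of them with the smallest p were USP15 (0.54), which removes ubiquitin from SMADs and TGFBR1, TRIM33 (0.38), PPM1A (0.40), a SMAD phosphatase, and MAP3K7 (0.41), the kinase TAK1. After GC correction these were 0.21, 0.07, 0.06 and 0.11 and none of the 26 was higher at the unadjusted p. Of 8 genes of latency and activation, ITGAV (0.47) and ITGB8 (0.49), which pair as an integrin that frees TGF-beta, were higher and none was lower, and neither was past the threshold after GC correction. Of 13 other antagonists, DCN (0.47), FSTL1 (0.42), TWSG1 (0.43) and SOSTDC1 (0.55) were higher and none was lower, with none past the threshold after GC correction. Of 12 other ligands, GDF15 (−1.40) and INHBE (−0.86), both also known as genes of the stress response, were lower. Vector replicate 3 had 37.4 CPM of GDF15 and 93.9 CPM of INHBE, the highest of the 6 libraries for each, and without it the log2 fold changes were −0.12 and −0.13. Of 4 other receptors and co-receptors tested, none passed.

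The fold changes of the members followed their GC content, as those of all genes did. Spearman's rho between the log2 fold change and the GC content of the canonical transcript was −0.77 across the 40 members, which share the same 6 libraries. Of the 20 members at or above the median GC content of 51.2%, 6 had positive and 14 negative log2 fold changes, with a median of −0.14. Of the 20 under it, 16 were positive and 4 negative, with a median of 0.25. TGFBR1, BMPR1A, SMAD4 and SMURF2 had a GC content of 38.8% to 41.8%, and ID3, ID1 and SMAD6 one of 56.7% to 58.8%. LTBP1, at 51.3%, was the called member closest to the median GC content. How far GC content accounts for each difference was not tested beyond the corrected values given with the members.

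**Figure D5:**
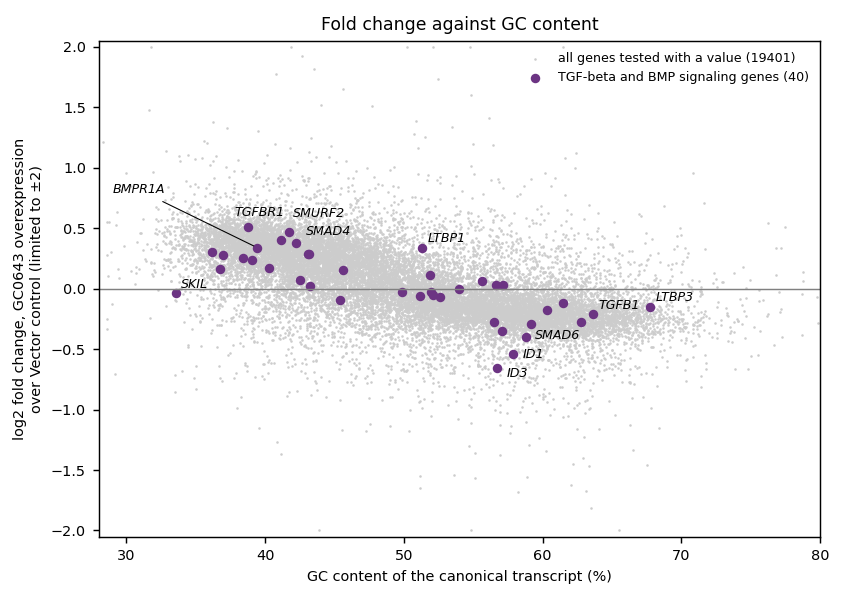
The log2 fold change of each gene tested, GC0643 overexpression over Vector control, against the GC content of its canonical transcript in percent (grey, all genes with a value; purple, the 40 members; values past 2 are drawn at 2). Most members lie along the grey cloud, with TGFBR1 at the upper left and LTBP3 at the right. ID3, ID1, LTBP1 and SKIL, the member of lowest GC content, lie off its centre.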

How the data were processed

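Total RNA of 6 HGC-27 libraries was made into sequencing libraries with the NEBNext Ultra RNA kit. Per the labels, the submitters' processing notes name Trimmomatic 0.32, HISAT2 2.1.0, featureCounts 2.0.0 and the genome build GRCh38. The authors deposited raw counts per Ensembl gene, not normalized, with the counting options and strand not given for these libraries in the sources used here. For the study's tissue libraries, the methods give featureCounts with overlapping genes allowed and no strand option. Symbols, positions, exon lengths and GC content came from GENCODE version 44, in which 58472 of the 58825 Ensembl IDs were found.

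The counts were filtered with edgeR 4.0.16 (filterByExpr), scaled by TMM and compared with the quasi-likelihood test over all 19528 genes left, with no covariate and Benjamini-Hochberg adjustment (R 4.3.3). CPM are counts relative to the library size after TMM scaling, and levels between genes were divided by the union of exons. The GC correction was a loess fit per library (span 0.3, prior count 1). The code was tested on simulated counts. SDs rest on 3 libraries per group. Standard errors came from the test, as the absolute log2 fold change over the square root of its F statistic, with the spread shared across genes. At 20376722 counts or more per library, TGFBR2, INHBA, GREM1 and FST had the fewest counts. ACVR2A, BMPR1B and LTBP2, at 63 to 247 counts, had standard errors of 0.23 to 0.25 on the log2 scale. The effect of depth was not tested.

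The members and gene lists were chosen with earlier results of these data known, so no test was run on the list itself. Values in every library are given for members past the unadjusted p of 0.05 or a fold change of 1.5, for the highest of each role, and for TGFB1, TGFB2, TGFB3, TGFBR1, TGFBR2, SMAD2, SMAD3, SMAD4, SMAD7, ID1, ID2 and ID3. From the other lists, up to 4 genes with the smallest p are named. Promoter windows were RefSeq's (GRCh38.p14).

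Alternatives to the test were DESeq2 1.42.0, limma 3.58.1 (voom) and edgeR's likelihood ratio. Alternatives to the scaling were the size factors of DESeq2, the library size, and corrections for GC content or length. The filter was dropped, set to CPM over 1 in 3 or more libraries, or joined with a restriction to protein-coding genes. A replicate block was fitted with and without GC correction, and each library was left out in turn. GC correction without vector replicate 2 was chosen after seeing the data. No replicates were identical.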

Additional observations from a re-analysis of the deposited data

How the results depend on the processing

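The median log2 fold change of the 40 members moved by less than the spread between libraries in all 19 alternatives. The number of members past the adjusted p was 0 in edgeR's quasi-likelihood test (8 at the unadjusted p), 2 without the filter on low counts (ID1 and ID3, where 0.618% of all genes passed), and 0 to 10 leaving out 1 library, the 10 coming without vector replicate 2. Members higher at the unadjusted p numbered 5, but 1 after GC correction, 1 after length correction, 1 with the replicate block and GC correction (2.02% of all genes), 2 with GC correction without vector replicate 2 (chosen after seeing the data, 6.82%), and 1 to 10 leaving out 1 library. Members lower numbered 3, but 6 each with DESeq2 (7.19% of all genes), DESeq2's size factors (7.4%), protein-coding genes only (7.69%) and length correction (8.64%), 1 with the replicate block and GC correction (2% of all genes), and 1 to 8 leaving out 1 library. GC correction turned the sign of 15 of the 40 members (16 with the block, 8 without vector replicate 2) and length correction that of 6, and leaving out 1 library turned 2 to 9. Of the members given by library, those whose sign turned were TGFB1 (0.00 after GC correction and with the block added), SMAD2 (−0.13 after GC correction, −0.02 after length correction, −0.12 with block and GC correction, −0.20 with GC correction without vector replicate 2), SKI (0.07, 0.07 and 0.12 under the 3 settings with GC correction), ID2 (−0.18, −0.17 and −0.27 under the same 3, −0.06 without GC0643 replicate 1, −0.01 without vector replicate 1, −0.06 to 0.16 over the libraries left out) and NOG (0.00 without vector replicate 3, −0.42 to 0.00 likewise), and the cause was not tested. Libraries with the same replicate number did not deviate together (correlations of −0.21, −0.0277 and −0.31). These values cannot exclude pairing with 3 libraries per group, and the labels do not state any. With the replicate block, 4 members were higher (9.96% of all genes), 3 lower (1.61%) and 0 past the adjusted p, of 24 genes called. TGFBR2, INHBA and GREM1 entered a fit only without the filter on low counts.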
